A study of Mus musculus with 6 samples.

Results

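Histone lysine demethylases remove methyl groups from lysines of the histone tails. The genes described here are 10 of the 54532 genes in the deposited count table, taken by their symbols: *Kdm1a*, *Kdm2a*, *Kdm2b*, *Kdm3a*, *Kdm3b*, *Kdm4a*, *Kdm4b*, *Kdm4c*, *Kdm5b* and *Kdm6b*. They were measured by RNA-seq of poly A RNA in 6 mouse hearts at E9.5, 3 of them *Smyd1-KO* and 3 WT, with no treatment in either group. The mutants came from a mouse line that carries the *Smyd1* mutation in every cell, so changes in the hearts cannot be assigned to one cell type. Each library was made from the heart of 1 embryo, and embryos of either sex were used. SMYD1 is itself a histone methyltransferase of heart and skeletal muscle.

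Of the 10 genes, 4 rose in *Smyd1-KO* hearts, namely *Kdm3a*, *Kdm4c*, *Kdm4b* and *Kdm5b*, and 0 fell. The rise was largest for *Kdm3a*, at 2.40-fold, and smallest for *Kdm5b*, at 1.46-fold. *Kdm1a*, *Kdm3b* and *Kdm4a* had log2 fold changes between -0.02 and 0.03. A gene was called changed when edgeR's quasi-likelihood test gave a Benjamini-Hochberg adjusted *P* under 0.05 over all 19372 genes tested and the log2 fold change was at least 0.5 in size. By this rule 4.28% of all genes tested were called, 2.86% higher and 1.42% lower in *Smyd1-KO* hearts. Among the 6692 genes with mean levels in the range of these 10 genes, 3.12% were called higher. *Kdm5b*, with an adjusted *P* of 0.0491 in edgeR, lost its call whichever heart was left out.

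Most histone demethylases belong to the Jumonji family, whose catalytic domain holds ferrous iron and consumes molecular oxygen and 2-oxoglutarate for each methyl group removed. KDM1A, also called LSD1, works differently and oxidizes the methyl-lysine with the cofactor FAD. In cells short of oxygen, hypoxia-inducible factors (HIF) bind DNA at sites with the core letters ACGTG or GCGTG, and *Kdm3a*, *Kdm4b* and *Kdm4c* are known as HIF target genes from work in other cells. In the heart, demethylases of this family act on the methyl marks of H3K4, H3K9, H3K27 and H3K36, which mark active and silent genes as the organ forms.

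The sequences before the start sites of 4 of these genes are given here, to show where the core letters of a HIF site stand. *Kdm3a*, *Kdm4c* and *Kdm5b* were called higher, and *Kdm4a*, a paralogue of *Kdm4c*, was not. The sequences were taken from RefSeq (GRCm38.p6), in which 6 of the 10 genes had a window. These were *Kdm1a*, *Kdm2b*, *Kdm3a*, *Kdm4a*, *Kdm4c* and *Kdm5b*, while the called gene *Kdm4b* had none. Each window holds the 250 bases before an annotated start, and capitals mark matches to ACGTG or GCGTG on either strand, including ACGTG inside the palindrome CACGTG, where a match falls on both strands. The *Kdm4c* window, chr4:74251629-74251878 on the plus strand, held CACGTG at 2 places and GCGTG at 2 more, the nearest 32 bases before the start. It overlaps an exon of the antisense gene *A230083N12Rik*. The *Kdm5b* window, chr1:134559928-134560177 on the plus strand, held ACGTG 229 bases and GCGTG 19 bases before the start. The *Kdm4a* window, chr4:118180044-118180293 on the minus strand, held neither. For *Kdm3a* only the 30 bases around the single match are shown, chr6:71632927-71632956 on the minus strand, because they lie in the first exon of another annotated *Kdm3a* transcript. The match there stands 27 bases before the RefSeq start.
Kdm4c: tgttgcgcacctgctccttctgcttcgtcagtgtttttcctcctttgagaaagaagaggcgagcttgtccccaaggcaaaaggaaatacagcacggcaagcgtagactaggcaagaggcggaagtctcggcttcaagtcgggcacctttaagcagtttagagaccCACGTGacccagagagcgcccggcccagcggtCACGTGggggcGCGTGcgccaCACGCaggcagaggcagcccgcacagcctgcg
Kdm5b: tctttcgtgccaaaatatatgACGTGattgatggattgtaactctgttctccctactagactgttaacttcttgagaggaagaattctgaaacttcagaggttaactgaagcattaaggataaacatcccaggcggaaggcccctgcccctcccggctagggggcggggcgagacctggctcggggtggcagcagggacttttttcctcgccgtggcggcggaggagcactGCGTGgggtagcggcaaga
Kdm4a: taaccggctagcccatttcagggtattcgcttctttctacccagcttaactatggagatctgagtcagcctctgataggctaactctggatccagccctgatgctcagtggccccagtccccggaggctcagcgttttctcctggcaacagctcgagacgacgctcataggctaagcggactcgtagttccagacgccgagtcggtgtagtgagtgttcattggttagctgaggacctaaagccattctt
Kdm3a: ccgggaggctgtGCGTGtcttgtgagagag

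Such letters are common. Of 32851 mouse windows of the same length, 16.6% held ACGTG, 28.2% held GCGTG and 38.6% held either. CACGTG, the E-box read by many basic helix-loop-helix factors, occurred in 6.02% of windows, and 2 or more copies, as before *Kdm4c*, in 0.429%. RefSeq windows at other annotated starts of *Kdm3a* and *Kdm4c* held neither ACGTG nor GCGTG. The *Kdm2b* windows held GCGTG, although *Kdm2b* was not called (log2 fold change 0.15), and the *Kdm1a* window held neither set of letters. Matches were thus not limited to called genes. A match describes the letters only, and binding was not measured in these data.

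The libraries held 48627825 to 64217529 counts and 26382 to 27666 detected genes each. The targeted gene *Smyd1* had 101, 222 and 206 CPM in *Smyd1-KO* hearts 1, 2 and 3, against 414, 379 and 269.8 CPM in WT hearts 1, 2 and 3, where CPM are counts scaled to a common library size with TMM factors. The genotypes did not overlap, and the log2 fold change was -1.01 ± 0.30 (SE, n = 3 and 3, adjusted *P* = 0.0973), which edgeR did not call and DESeq2 did (adjusted *P* = 0.00534). Counts per gene do not show which exons the remaining reads came from. *Smyd1-KO* heart 1 stood apart. Its summed level of 14 cardiomyocyte markers was 10039 CPM, against 13226 to 22447 CPM in the other 5 hearts, and its summed level of 12 erythroid markers was 40.5 CPM, against 179 and 302 CPM in the other *Smyd1-KO* hearts and 775 to 1037 CPM in WT hearts. Of the erythroid markers, 11 of 12 were lower in every *Smyd1-KO* heart than in every WT heart, where 15.5% of all genes tested were. Of the 12, 3 were called lower, where 1.42% of all genes tested were. Endothelial and endocardial markers summed to 863 to 1350 CPM in *Smyd1-KO* and 811 to 982 CPM in WT hearts. Epicardial markers summed to 159 to 282 and 125 to 155 CPM, and smooth muscle and mesenchyme markers to 2180 to 5363 and 2214 to 3506 CPM. In this last sum *Smyd1-KO* heart 3 also stood apart, at 5363 CPM against 2180 to 3506 CPM in the other 5 hearts. Macrophage markers were near 0, with 6 of 8 at 0 in at least 1 heart (*Ptprc*, *Adgre1*, *Cx3cr1*, *C1qa*, *C1qb* and *Fcgr1*). Heart 1 of each genotype carried Y-linked transcripts and had little *Xist*, and the other 4 hearts had *Xist*. Calls of demethylase genes are therefore also given with single hearts left out. In RNA of whole hearts, fewer cells of a type and less RNA per cell cannot be told apart, and the part of cell composition in the results was not tested.

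**Figure D1:**
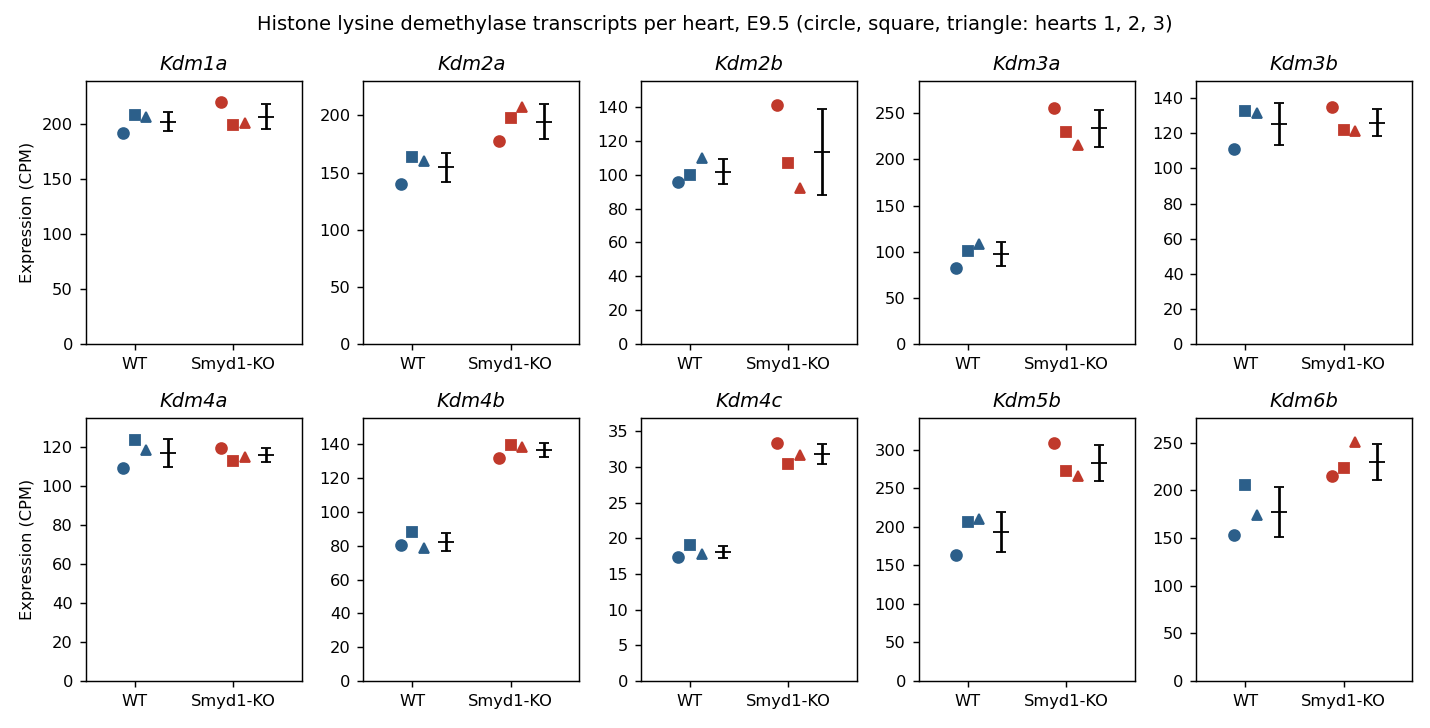
Transcript levels of the 10 demethylase genes in each heart, in CPM on a linear axis that starts at 0. Circles, squares and triangles are hearts 1, 2 and 3 of WT (blue) and *Smyd1-KO* (red), and the black lines are the mean and SD of 3 hearts. All 3 *Smyd1-KO* hearts lie above all 3 WT hearts for *Kdm2a*, *Kdm3a*, *Kdm4b*, *Kdm4c*, *Kdm5b* and *Kdm6b*, while the 2 genotypes overlap for *Kdm1a*, *Kdm2b*, *Kdm3b* and *Kdm4a*.

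KDM3A and KDM3B remove mono- and dimethyl groups from H3K9, a mark of silent chromatin, and KDM3A is known for its role in sperm maturation and metabolism. *Kdm3a* (chromosome 6, 71588972 to 71632990, GRCm38, minus strand) had 255, 229.9 and 216 CPM in *Smyd1-KO* hearts 1, 2 and 3, against 82.8, 101 and 108 CPM in WT hearts 1, 2 and 3. The groups lay far apart, with every *Smyd1-KO* heart well above the highest WT heart. The log2 fold change was 1.26 ± 0.12 (SE), with a 95% interval of 0.98 to 1.55 and an adjusted *P* of 0.00407. Leaving out each heart in turn gave 1.17 to 1.35, and *Kdm3a* kept its call each time, while hearts 2 and 3 of each genotype alone, in which 7.85% of all genes tested were called, gave 1.11 (adjusted *P* = 0.00500).

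*Kdm3b* (chromosome 18, 34777047 to 34838660, plus strand), the paralogue of *Kdm3a*, had 135, 122 and 121 CPM in *Smyd1-KO* hearts against 111, 133 and 131 CPM in WT hearts. The groups overlapped, and WT heart 1 was the lowest of the 6. edgeR gave a log2 fold change of 0.01 ± 0.10 (SE, adjusted *P* = 0.968), and the 95% interval allowed a fold between 0.860 and 1.18. Within a heart, the log2 ratio of *Kdm3a* to *Kdm3b* was 0.92, 0.92 and 0.83 in *Smyd1-KO* hearts and -0.43, -0.39 and -0.28 in WT hearts. This ratio is almost free of how the libraries were scaled, and it did not overlap between the genotypes. The mean difference was 1.26, for which the exact two-sided permutation test gave *P* = 0.1, the smallest that 3 against 3 hearts allow, and 0.25 after adjustment over the 5 ratios tested.

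*Kdm3a* lies on the same chromosome as *Smyd1*, with 266738 bases between the 2 genes. Of 26 tested genes within 1 Mb on either side of *Smyd1*, 2 were called, both higher, or 7.69%. Over all genes tested, 4.28% were called and 2.86% were called higher. The 2 were *Kdm3a* itself and the pseudogene *Rpl34-ps1* (log2 fold change 0.54, adjusted *P* = 0.0318). *Rpl34-ps1* shares its sequence with other ribosomal gene copies, so its counts are uncertain. Of the 3 tested genes between *Smyd1* and *Kdm3a*, 0 were called. The median log2 fold change in the window without *Kdm3a* was -0.13. The window was chosen after the positions were seen, and whether the genotypes differ in the DNA around *Smyd1* was not tested.

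The KDM4 enzymes remove tri- and dimethyl groups from H3K9 and H3K36. *Kdm4b* (chromosome 17, 56326062 to 56402870, plus strand) had 132, 139.8 and 139 CPM in *Smyd1-KO* hearts against 80.4, 88.2 and 78.4 CPM in WT hearts. The spread within each group was small beside the gap between them. It rose by a log2 fold change of 0.73 ± 0.08 (SE, adjusted *P* = 0.00574), or 1.66-fold, and kept its call whichever heart was left out, at 0.70 to 0.78.

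*Kdm4c* (chromosome 4, 74242497 to 74405860, plus strand) had the fewest counts of the 10 genes, 8653 over the 6 hearts and at least 1034 in each. Its levels were 33.3, 30.4 and 31.6 CPM in *Smyd1-KO* hearts against 17.4, 19.1 and 17.7 CPM in WT hearts. No heart of either genotype came near the other group. It rose by a log2 fold change of 0.82 ± 0.09 (SE, adjusted *P* = 0.00664), or 1.76-fold, and kept its call with any 1 heart removed, at 0.78 to 0.86.

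*Kdm4a* (chromosome 4, 118136957 to 118180043, minus strand) had 119, 113 and 115 CPM in *Smyd1-KO* hearts against 109, 123 and 118 CPM in WT hearts. All 3 *Smyd1-KO* values lay inside the WT range. The log2 fold change was -0.02 ± 0.08 (SE, adjusted *P* = 0.923), and the 95% interval allowed a fold between 0.873 and 1.12. The log2 ratio of *Kdm4b* to *Kdm4a* was 0.14, 0.31 and 0.27 in *Smyd1-KO* hearts and -0.44, -0.48 and -0.59 in WT hearts, with no overlap. The mean difference in this ratio was 0.75 (exact two-sided permutation *P* = 0.1, the smallest possible, adjusted 0.25). The ratio of *Kdm4b* to *Kdm4c* differed by -0.08 and overlapped between the genotypes (exact permutation *P* = 0.2, adjusted 0.25).

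**Figure D2:**
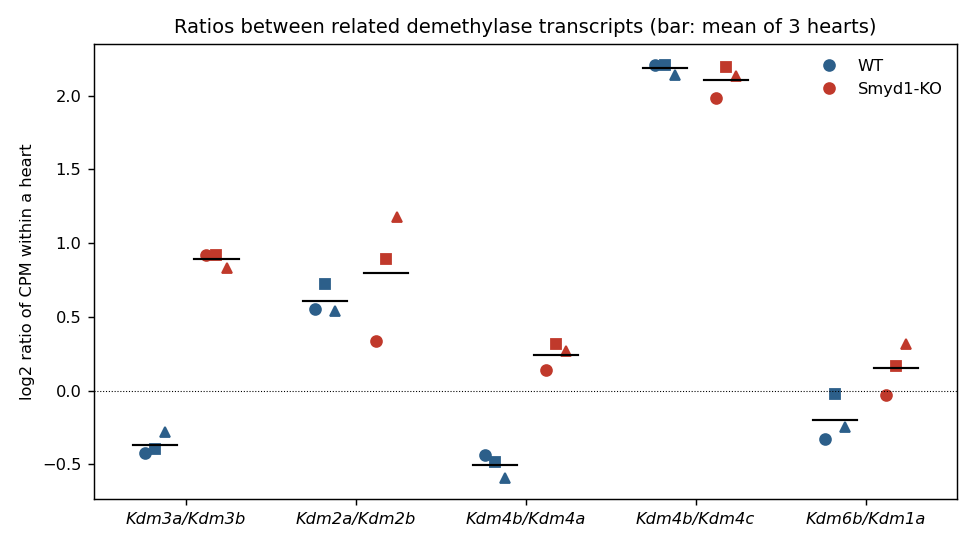
Log2 ratios of CPM between related demethylase transcripts within each heart, for WT (blue) and *Smyd1-KO* (red) hearts 1 (circle), 2 (square) and 3 (triangle), with a bar at the mean of 3 hearts and a dotted line at equal CPM. The ratios *Kdm3a*/*Kdm3b* and *Kdm4b*/*Kdm4a* separate the genotypes, with mean differences of 1.26 and 0.75, and the other 3 ratios overlap.

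H3K4 methylation marks promoters and enhancers. KDM5B, also called JARID1B, removes its tri- and dimethyl forms, and KDM1A its mono- and dimethyl forms. *Kdm5b* (chromosome 1, 134560171 to 134635285, plus strand) had 309, 272 and 266 CPM in *Smyd1-KO* hearts against 163, 207 and 209.9 CPM in WT hearts. The groups did not overlap, and WT heart 1 was the lowest and *Smyd1-KO* heart 1 the highest of all. The log2 fold change was 0.55 ± 0.12 (SE), with an adjusted *P* of 0.0491, just inside the threshold. *Kdm5b* lost its call whichever heart was left out, at 0.45 to 0.62 with adjusted *P* of 0.0630 to 0.145. With hearts 2 and 3 of each genotype alone it was 0.39 (adjusted *P* = 0.0338), under the limit on the fold change.

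*Kdm1a* (chromosome 4, 136550540 to 136602723, minus strand), the FAD enzyme and the only one of the 10 without a Jumonji domain, had 220.0, 199 and 201 CPM in *Smyd1-KO* hearts against 192, 209 and 206 CPM in WT hearts. The groups overlapped. Its log2 fold change was 0.03 ± 0.08 (SE, adjusted *P* = 0.848), and the 95% interval allowed a fold between 0.894 and 1.17.

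KDM2A and KDM2B remove methyl groups from H3K36 and bind unmethylated CpG islands, and KDM2B brings a Polycomb complex, PRC1.1, to them. *Kdm2a* (chromosome 19, 4314419 to 4398285, minus strand) had 178, 198 and 207 CPM in *Smyd1-KO* hearts against 140.3, 164 and 160.2 CPM in WT hearts. All *Smyd1-KO* hearts were above all WT hearts, but the log2 fold change of 0.33 ± 0.10 (SE, adjusted *P* = 0.0973) was not called. The 95% interval allowed a fold between 1.07 and 1.47.

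*Kdm2b* (chromosome 5, 122870665 to 122989823, minus strand) scattered most among the *Smyd1-KO* hearts, with 141, 107 and 91.8 CPM against 95.7, 99.5 and 110.1 CPM in WT hearts. *Smyd1-KO* heart 1 was the highest of the 6 and *Smyd1-KO* heart 3 the lowest. Its log2 fold change was 0.15 ± 0.16 (SE, adjusted *P* = 0.580), the 95% interval allowed a fold between 0.864 and 1.43, and the value was -0.03 without *Smyd1-KO* heart 1. Its exons share 627 bases with *Rnf34* on the opposite strand, which had 53.7% as many counts as *Kdm2b*, and 199 bases with the antisense gene *A930024E05Rik*. The strand setting of the counting is not given in the sources used here, so reads of these genes may not be told apart. The log2 ratio of *Kdm2a* to *Kdm2b* differed by 0.19 between the genotypes and overlapped (exact permutation *P* = 0.6, also after adjustment).

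KDM6B, also called JMJD3, removes tri- and dimethyl groups from H3K27, the mark placed by the Polycomb complex PRC2. *Kdm6b* (chromosome 11, 69398508 to 69413675, minus strand) had 215, 223 and 251 CPM in *Smyd1-KO* hearts against 153, 205 and 174 CPM in WT hearts. The groups did not overlap, with the highest WT heart just under the lowest *Smyd1-KO* heart. The log2 fold change of 0.37 ± 0.12 (SE, adjusted *P* = 0.122) was not called, and the 95% interval allowed a fold between 1.06 and 1.58. Against *Kdm1a*, the log2 ratio was -0.03, 0.16 and 0.32 in *Smyd1-KO* hearts and -0.33, -0.02 and -0.25 in WT hearts. These ranges overlapped slightly, and the mean difference was 0.35 (exact permutation *P* = 0.2, adjusted 0.25).

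The 10 genes were chosen with earlier results of these data known, so the comparisons here describe them and are no independent test. Over the 10 genes, the median log2 fold change was 0.35, beside -0.0026 over all genes tested. Over the 10 other demethylase genes tested it was 0.04, with 2 higher and 2 lower in every *Smyd1-KO* heart. All *Smyd1-KO* hearts were above all WT hearts for 6 of the 10, where 15.9% of all genes tested showed this and 15.5% showed the reverse. The same 6 genes had an unadjusted *P* under 0.05 in edgeR and were higher, as were 13.1% of all genes tested. DESeq2, which called 9.29% of the genes it tested and 5.98% as higher, called the same 4 demethylases. Fits with 1 heart left out called 0.489% to 6.28% of all genes tested, and 3 of the 10 demethylases each. All 10 genes passed the filter on low counts.

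**Figure D3:**
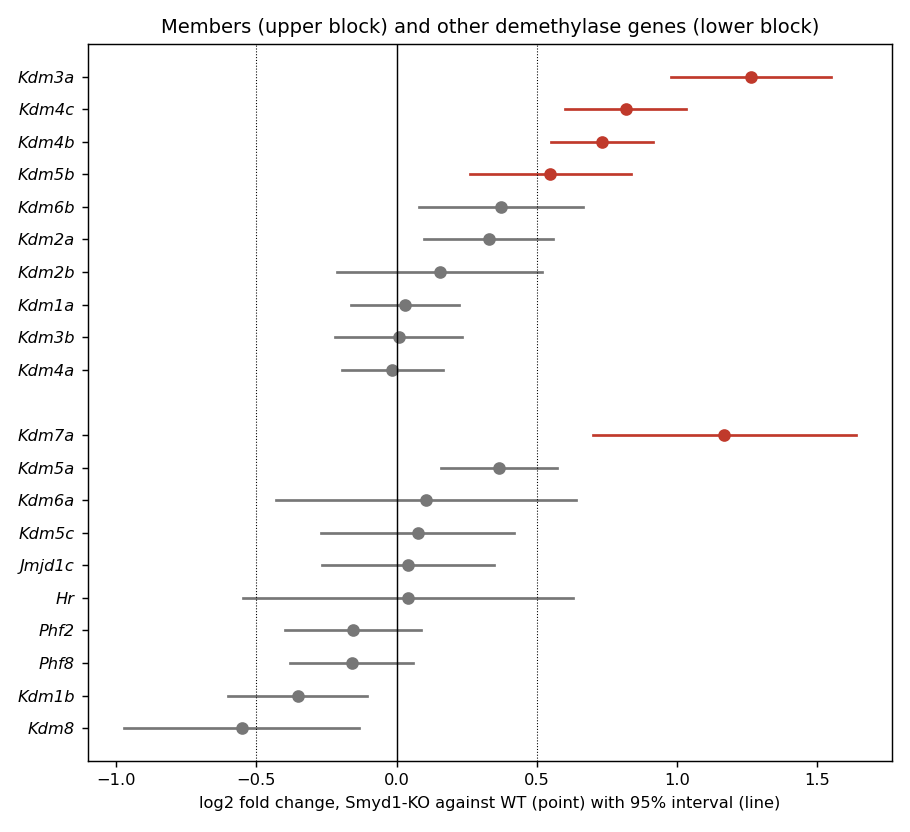
Log2 fold changes of the 10 demethylase genes (upper block) and of the 10 other demethylase genes that were tested (lower block), *Smyd1-KO* against WT, with 95% intervals from edgeR's quasi-likelihood fit. Red marks genes called changed, dotted lines stand at 0.5 and -0.5, and the intervals of *Kdm1a*, *Kdm3b* and *Kdm4a* stay inside them.

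Levels of different genes were compared as CPM per kilobase of exon. On this scale the WT hearts had most *Kdm1a*, at 39.1 ± 1.71 (SD, n = 3), then *Kdm6b* at 25.5 ± 3.75, *Kdm4a* at 20.2 ± 1.25 and *Kdm4b* at 16.8 ± 1.06. *Kdm3a* at 11.8, *Kdm5b* at 11.7, *Kdm2a* at 10.7, *Kdm2b* at 9.36 and *Kdm3b* at 8.88 followed, and over the 3 hearts each of these 5 overlapped the next of them in the order. *Kdm4c* was lowest in the WT hearts, at 3.10 ± 0.15, apart from all others. In *Smyd1-KO* hearts *Kdm1a* was again first, at 39.9 ± 2.23, and *Kdm4c* again last, at 5.46 ± 0.25. *Kdm3a*, at 28.4 ± 2.43, stood between *Kdm6b* at 33.0 ± 2.68 and *Kdm4b* at 27.9 ± 0.89, and overlapped both. *Kdm4a* now lay below *Kdm4b* in every heart, where it had been above it in every WT heart.

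Summed over the 10 genes, the level per length reached 211, 200.3 and 202 in the mutant hearts, against 144, 167 and 161 in the WT hearts. Every *Smyd1-KO* heart exceeded every WT heart. As a share of this sum, *Kdm3a* was 13.9% ± 0.860 (SD, n = 3) in *Smyd1-KO* and 7.51% ± 0.594 in WT hearts, and *Kdm4b* was 13.7% ± 0.812 and 10.7% ± 0.733. *Kdm1a* made up 19.5% ± 0.529 and 24.9% ± 0.866, and *Kdm4a* 9.78% ± 0.0580 and 12.9% ± 0.213. *Kdm6b* held 16.2% in both. These shares were not tested, and a share falls where other genes of the sum rise.

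**Figure D4:**
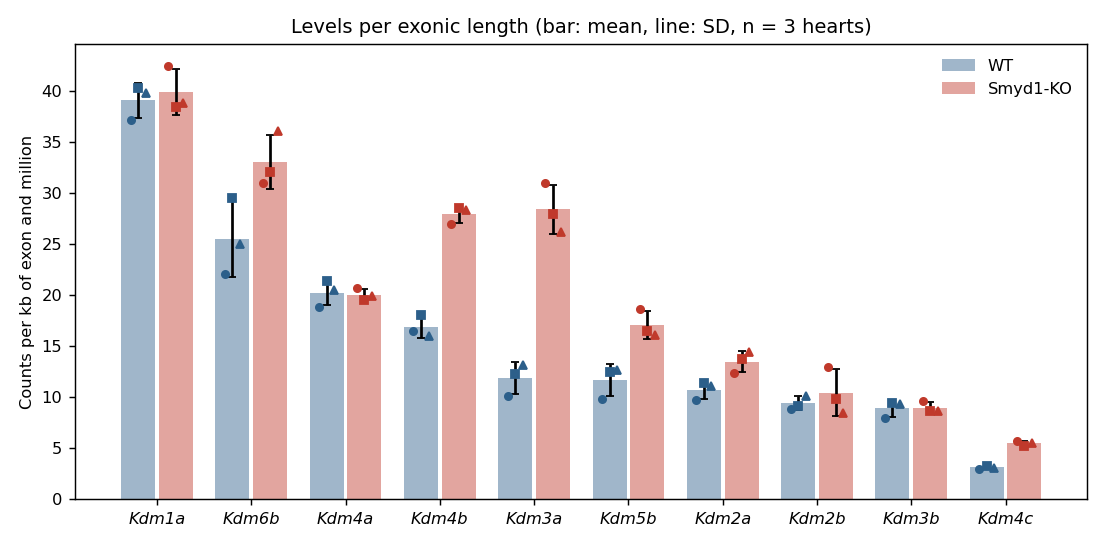
Levels of the 10 demethylase genes as CPM per kilobase of exon on a linear axis from 0, in the order of their WT means. Bars are means of 3 WT (blue) or 3 *Smyd1-KO* (red) hearts, lines are SD, and circles, squares and triangles are hearts 1, 2 and 3. *Kdm3a* moves from 11.8 to 28.4, while *Kdm1a* stays at 39.1 and 39.9.

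The other genes of the demethylase families numbered 13, of which 10 were tested. Of these edgeR called only *Kdm7a*, which acts on H3K9 and H3K27, and their median log2 fold change was 0.04. *Kdm7a* had 103, 85.8 and 74.8 CPM in *Smyd1-KO* hearts against 28.1, 45.3 and 43.7 CPM in WT hearts. The groups did not overlap. It rose by a log2 fold change of 1.17 ± 0.20 (SE, adjusted *P* = 0.0232), or 2.25-fold, and *Kdm7a* lost its call without *Smyd1-KO* heart 2 (adjusted *P* = 0.0689), WT heart 2 (0.0858) or WT heart 3 (0.0798). *Kdm5a*, the closest relative of *Kdm5b*, was higher in every *Smyd1-KO* heart, at 124 to 129 CPM against 89.3 to 108 CPM, without being called (log2 fold change 0.37, adjusted *P* = 0.0587). *Kdm8* (log2 fold change -0.55, adjusted *P* = 0.114) and *Kdm1b*, the second FAD enzyme (-0.35, adjusted *P* = 0.0990), were lower in every *Smyd1-KO* heart and not called by edgeR, while DESeq2 called *Kdm8* lower (-0.55, adjusted *P* = 0.0341). Exons of *Kdm1b* share 505 bases with *Dek* on the opposite strand, which has far more counts. *Jmjd1c*, the third KDM3 family gene (0.04), *Hr* (0.04), *Phf8* (-0.16) and *Phf2* (-0.16) overlapped between the genotypes. *Kdm4d* was not tested, with 31 counts in all 6 hearts.

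The X-linked demethylases *Kdm5c* and *Kdm6a* and their Y-linked counterparts *Kdm5d* and *Uty* followed the sex of the hearts. *Kdm5c*, which removes H3K4 methylation, had 243, 298 and 301 CPM in *Smyd1-KO* hearts against 217, 295 and 288 CPM in WT hearts, so heart 1 was the lowest in each genotype. *Kdm6a*, the X-linked relative of *Kdm6b*, had 55.6, 76.0 and 70.0 CPM and 41.3, 71.2 and 74.9 CPM, again lowest in heart 1. Neither was called (log2 fold changes 0.07 and 0.11). *Kdm5d* had 10.7 CPM in *Smyd1-KO* heart 1 and 38.3 CPM in WT heart 1, and *Uty* 6.29 and 19.8 CPM, with at most 4 counts of either in any other heart. With the sex of the heart as a covariate, which called 3.47% of all genes tested, *Kdm3a*, *Kdm4b* and *Kdm4c* were called. *Kdm5b* was not (0.55, adjusted *P* = 0.0721), although its log2 fold change was also 0.55 without the covariate. Sex was read from *Xist*, so the covariate only set heart 1 of each genotype apart from the other hearts. It cannot tell sex from any other trait of heart 1, and *Smyd1-KO* heart 1 also stood apart in its marker sums. The same limit holds wherever a call is given with this covariate.

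The enzymes that place the same marks were read beside them. Of 22 histone methyltransferase and PRC2 genes tested, 1 was called higher and 1 lower, where 2.86% and 1.42% of all genes tested were, and their median log2 fold change was -0.10. In edgeR 5 of the 22 had an unadjusted *P* under 0.05, beside 4857 of all 19372 genes tested. *Setd1b*, a writer of H3K4 methylation, had 47.6, 39.8 and 43.9 CPM in *Smyd1-KO* hearts against 57.8, 85.4 and 81.2 CPM in WT hearts, and fell by 0.77 on the log2 scale (adjusted *P* = 0.0363), a call that was lost with sex as a covariate (adjusted *P* = 0.0586). The 6 H3K4 writers had a median of -0.24, and the next largest values, of *Kmt2d* (-0.46) and *Kmt2a* (-0.32), were not called. The 6 H3K9 writers all had negative values and a median of -0.11, with none called (edgeR, 1 at an unadjusted *P* under 0.05), the largest being *Setdb2* (-0.38) and *Suv39h2* (-0.26). *Ezh1*, 1 of the H3K27 writers of PRC2, had 34.7, 33.3 and 33.9 CPM in *Smyd1-KO* hearts against 19.4, 20.2 and 20.9 CPM in WT hearts, and rose by 0.75 (adjusted *P* = 0.00664). Its paralogue *Ezh2* (-0.06) overlapped between the genotypes, and *Jarid2*, a PRC2 cofactor with an inactive Jumonji domain, had 0.48 (adjusted *P* = 0.0678). Of the 5 H3K36 writers none was called (edgeR, 0 at an unadjusted *P* under 0.05), with values from -0.16 for *Nsd2* and -0.13 for *Nsd1* to 0.05.

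Partners of the demethylases were read in 3 lists, with 26 genes tested. Of these, 1 was called higher and 1 lower, where 2.86% and 1.42% of all genes tested were. In edgeR 6 of the 26 had an unadjusted *P* under 0.05, as did 4857 of all 19372 genes tested. Of 12 tested partners of KDM1A in CoREST-type complexes, *Rcor2* was called higher, with 275, 246 and 212 CPM in *Smyd1-KO* hearts against 149, 169 and 173 CPM in WT hearts (log2 fold change 0.58, adjusted *P* = 0.0390). This call was lost with sex as a covariate (adjusted *P* = 0.0641) and in hearts 2 and 3 alone, at 0.43. *Hmg20b* was called lower, with 57.0, 57.1 and 58.8 CPM against 92.7, 91.6 and 81.9 CPM (-0.62, adjusted *P* = 0.00861). The median of the list was 0.03, and *Phf21a* (0.36) was not called. *Gfi1b*, a factor of blood cells, was below 2 CPM in every heart and not called (-2.46, adjusted *P* = 0.133). It was lower in every *Smyd1-KO* heart, as were 11 of the 12 erythroid markers. Of 8 partners of KDM2B in PRC1.1 edgeR called none and gave 1 an unadjusted *P* under 0.05. Their median was 0.08, with the largest values for *Pcgf1* (0.32) and *Bcor* (0.27). Of 6 tested partners in the COMPASS complexes that hold KDM6A none was called (1 at an unadjusted *P* under 0.05), and *Paxip1* (-0.36, adjusted *P* = 0.0496) passed the *P* but not the fold limit, with *Dpy30* next (-0.18).

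Beyond the histone demethylases, 13 genes of other enzymes that use oxygen and 2-oxoglutarate were read. Of these 9 were called higher and 0 lower, where 2.86% and 1.42% of all genes tested were. The median log2 fold change of the 13 genes was 0.86. They were chosen with earlier results of these data known, so the count is no independent test. Whether the calls go with this class of enzymes or with HIF was not tested. The oxygen-sensing HIF prolyl hydroxylases *Egln3* (2.51) and *Egln1* (1.71) were higher, and *Egln1* had 345, 425 and 421 CPM in the mutants against 131, 121 and 111 CPM in WT, while *Egln2* had -0.09 and the HIF asparaginyl hydroxylase *Hif1an* -0.03. The collagen-modifying hydroxylases *P4ha2* (2.37), *P4ha1* (1.59), *Plod2* (1.57) and *Plod1* (0.76) were called. So were *Tet2* (1.02) and *Tet1* (0.86), which oxidize methylcytosine in DNA, whereas *Tet3* had 0.06. Of the RNA demethylases, *Alkbh5* (0.66) was called and *Fto* (0.21) was not. Of 14 enzymes that make or use 2-oxoglutarate, succinate or fumarate, 1 was called lower, *Ogdh* (-0.55, adjusted *P* = 0.0468), which consumes 2-oxoglutarate in the mitochondrion, and the call was lost with sex as a covariate (adjusted *P* = 0.0651) and in hearts 2 and 3 alone (adjusted *P* = 0.0764). The median of this list was -0.06, and *Idh3a* (-0.39) and *D2hgdh* (0.36) overlapped between the genotypes.

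A list of 12 HIF targets was chosen with earlier results of these data known, so it is no independent test. All 12 were called higher, where 2.86% of all genes tested were. Their median log2 fold change was 1.63, with values from 0.62 for *Ldha* to 3.82 for *Ndrg1*. The others were *Ankrd37*, *Car9*, *Ero1l*, *Bnip3*, *Pfkfb3*, *Adm*, *Vegfa*, *Slc2a1*, *Pdk1* and *Pgk1*. Their summed level was 9923, 11120 and 11106 CPM in *Smyd1-KO* hearts against 6132, 4814 and 4807 CPM in WT hearts. Among the *Smyd1-KO* hearts, heart 1 was the lowest in this sum. With sex as a covariate in edgeR, *Ldha* lost its call (adjusted *P* = 0.0501), and the other genes of the list kept theirs. Oxygen and HIF protein were not measured in these libraries, and their part in the results was not tested.

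**Figure D5:**
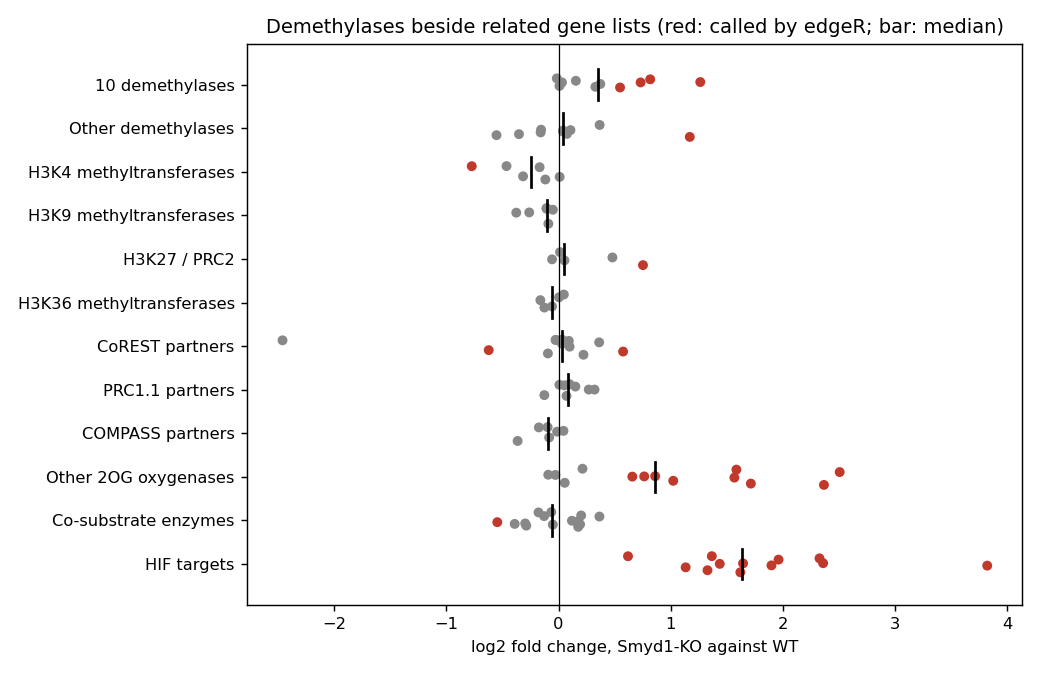
Log2 fold changes, *Smyd1-KO* against WT, of the 10 demethylase genes beside other demethylases and 10 lists of related genes, 1 point per tested gene, red where called by edgeR and grey otherwise, with a black bar at the median of each list. The medians lie at 0.35 for the 10 demethylases, 0.86 for other 2-oxoglutarate (2OG) oxygenases and 1.63 for HIF targets, and between -0.24 and 0.08 for the other lists. All lists were chosen with earlier results of these data known.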

How the data were processed

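RNA of individual E9.5 hearts was sequenced from 3 *Smyd1-KO* and 3 WT embryos, and groups and replicate numbers were taken from the sample labels. The authors selected poly A RNA, sequenced it as paired-end reads, aligned the reads to mm10 with STAR through bcbio-nextgen and deposited whole-number counts per gene, which were used here without change. The counting tool, annotation release and strand setting are not given in the sources used here. A deposited table of normalized values was not used.

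Genotypes were compared on these counts with edgeR 4.0.16 in R 4.3.3 (filterByExpr, TMM factors, quasi-likelihood test, genotype only), and DESeq2 1.42.0 was an alternative. *P* values were adjusted by the Benjamini-Hochberg method over 19372 genes, and the common biological coefficient of variation was 22.5%. TMM factors entered all CPM, and the log2 ratios used a prior count of 2. SE were taken from the *F* statistic, and 95% intervals from its degrees of freedom. Each of the 10 genes had at least 1034 counts in each heart. Exonic lengths, positions and overlaps came from GENCODE M21 (GRCm38), in which 54495 of 54532 genes were found. Tests were tried on simulated data. Tables and plots were made in Python 3.11.15 with pandas 2.3.3, scipy 1.17.1 and matplotlib 3.10.9.

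The 10 genes and all lists were chosen with earlier results of these data known. Named are the 10 genes, the other demethylases, *Smyd1*, *Chd4* and, of each related list, the called genes and the 2 with the largest values beyond them. *Rpl34-ps1*, *Tet3*, *Hif1an*, *Dek*, *Rnf34* and the other overlapping genes were named after their values were seen. *Chd4* had 719 to 805 CPM in *Smyd1-KO* and 841 to 997 CPM in WT hearts and was not called. Alternatives were the normalization, the filter on low counts, mitochondrially encoded and haemoglobin genes left out, no limit on the fold change, the replicate number as a block, and each heart left out. DESeq2 with the block, hearts 2 and 3 of each genotype alone, and sex as a covariate were added after the data had been seen.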

Additional observations from a re-analysis of the deposited data

How the results depend on the processing

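*Kdm3a*, *Kdm4b* and *Kdm4c* kept their direction under all 16 alternatives to the fit and their call under 15. *Kdm5b* kept its direction under all 16 and its call under 6, and the 6 uncalled demethylases were called under none. The number of all genes called was 830 in the fit reported, 1749 with DESeq2, 1549 in hearts 2 and 3 of each genotype alone, and 97 to 1256 when each heart was left out. The related lists had 27 calls among 97 tested genes, where 4.28% of all genes tested were called, and 10 to 26 calls when each heart was left out. Of the 27, 12 were HIF targets and 9 were other 2-oxoglutarate oxygenases, so most calls came from these 2 lists. Fewest calls, 97 over all genes and 10 in the lists, came without WT heart 2, with 171 and 15 without WT heart 3, and 248 and 17 without *Smyd1-KO* heart 2. Over all genes, 344 were called without *Smyd1-KO* heart 3 and 501 without WT heart 1, and the highest number, 1256, came without *Smyd1-KO* heart 1. The cause was not tested.

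*Kdm5b* was not called with upper-quartile normalization (0.55, adjusted *P* = 0.0530), with sex as a covariate (0.55), in hearts 2 and 3 alone (0.39) or with any heart left out (0.45 to 0.62). Values near 0 changed sign: in hearts 2 and 3 alone *Kdm1a* was -0.035, *Kdm2b* -0.06 and *Kdm3b* -0.11. With each heart left out, *Kdm1a* ran from -0.015 to 0.059, *Kdm2b* from -0.033 to 0.29, *Kdm3b* from -0.062 to 0.052 and *Kdm4a* from -0.055 to 0.023. Without division by exonic length, the change in share of the sum (percentage points) was -3.61 in place of -5.40 for *Kdm1a*, -2.32 in place of -1.28 for *Kdm3b*, -2.30 in place of -3.10 for *Kdm4a*, 1.69 in place of 2.94 for *Kdm4b*, 0.48 in place of 0.69 for *Kdm4c* and 1.72 in place of 0.93 for *Kdm5b*.

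The labels number the hearts 1 to 3 in each genotype, but hearts of the same number are different embryos. Their deviations from the genotype means correlated at -0.216 to -0.054, against -0.156 to 0.286 for hearts of different numbers, so the numbers were not taken as pairs. With the replicate block, edgeR called 59 genes over all, 10 in the related lists and 0 of the 10 demethylases. The values were 1.27 for *Kdm3a* (adjusted *P* = 0.0688), 0.73 for *Kdm4b* (0.0696), 0.82 for *Kdm4c* (0.0859) and 0.55 for *Kdm5b* (0.177). DESeq2 with the same replicate block called 1205 genes and 4 of the 10 demethylases.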

Other observations

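The hearts numbered 1 were the ones with Y-linked transcripts in each genotype, and the Y-linked genes were lower in the *Smyd1-KO* heart than in the WT heart. *Ddx3y* had 12.4 CPM in *Smyd1-KO* heart 1 and 44.5 CPM in WT heart 1, and *Eif2s3y* had 11.6 and 54.0 CPM. With *Kdm5d* and *Uty* the WT level was 3.15 to 4.66 times the *Smyd1-KO* level, in 1 heart of each genotype. *Xist* was 2.76 and 2.80 CPM in these hearts and 766 to 939 CPM in the other 4.

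Of the genes within 1 Mb of *Smyd1*, *Reep1*, which lies on the far side of *Kdm3a*, was higher in every *Smyd1-KO* heart and not called (log2 fold change 0.39, adjusted *P* = 0.0824). The same held for *Thnsl2* (0.41) and *Eif2ak3* (0.11). *Gm44321*, *Gm44770*, *Mrpl35*, *Gm17825*, *4933431G14Rik* and *Usp39* were lower in every *Smyd1-KO* heart and not called. Over all genes tested, 15.9% were higher and 15.5% lower in every *Smyd1-KO* heart. The genes next to *Kdm3a* on the side of *Smyd1*, *Chmp3* (-0.08), *Rnf103* (0.03) and *Rmnd5a* (-0.04), overlapped between the genotypes. These genes were named after their values were seen.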
